A study of Mus musculus with 2 samples.

Results

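Tight junction genes were followed across the cell classes of the mouse prostate. The set was chosen by symbol and held every claudin (Cldn followed by a number), every zonula occludens scaffold (Tjp), every Marveld gene, and Ocln, F11r, Cgn and Cgnl1. These symbols matched 33 of the 32285 genes in the files. Of the 33, 24 had at least 20 UMIs (unique molecular identifiers, which count captured RNA molecules) over the kept cells of 1 library, and these 24 genes enter every count below. The other 9, all claudins, had 0 to 17 UMIs in either library.

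Tight junctions seal the space between neighbouring epithelial or endothelial cells near their apical side. Claudins are membrane proteins that cross the membrane several times and pair between cells, some tightening the barrier and others forming pores for ions. Occludin and the Marvel-domain proteins join them, JAM-A (F11r) is an immunoglobulin-type adhesion protein at the same site, and the zonula occludens proteins and cingulins tie the membrane proteins to the actin skeleton. In the prostate the luminal epithelium secretes into a closed lumen, basal cells lie under it, and endothelial cells line the vessels of the stroma.

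The study profiled single cells of prostates from wild-type male C57BL6 mice after papain and TrypLE dissociation. It held 2 libraries from the 10x Genomics 3' assay, 1 of the ventral lobes (kit version 2) and 1 of the proximal and periurethral region (kit version 3). With 1 library per region there is no replicate check, no test was made, and the kit cannot be told apart from the region. Values in brackets are exact 95% intervals for counting error alone.

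The ventral library kept 1988 cells with a median of 25758.5 UMIs, the proximal library 3705 cells with a median of 15260, and 0 barcodes were shared. Cells were clustered without any tight junction or other junction gene among the variable genes, and clusters were named from marker lists. The secretory luminal-like class (Sbp, Spink1, Pbsn, Msmb, and Tgm4 in the proximal library) held 1462 ventral and 640 proximal cells. Tgm4 had 21 UMIs in the ventral and 218339 in the proximal cells of this class. The proximal luminal-like class (Psca, Krt4, Wfdc2, Clu) held 50 and 800 cells, and the basal-like class (Krt5, Krt14, Trp63) held 141 and 889. A periurethral-like cluster of 199 cells and an endothelial-like cluster of 57 cells were found in the proximal library. The periurethral-like cluster was led by Ly6d, Ivl and Upk3a, and 43 of its 199 cells (21.6%) had UMIs of both Ly6d and Aqp3, against 22 of 800 proximal luminal-like and 69 of 889 basal-like cells. Its mean marker level was highest for the proximal luminal list, and it took its name from its leading genes by a step added after clusters had been seen. The defining marker Krt13 was at 5.24 UMIs per 1000000 UMIs (CPM) in this cluster and 4.22 in the rest of the library. The endothelial-like cluster had all 8 endothelial markers, among them Flt1 and Emcn, and also the lymphatic marker Ccl21a among its leading genes. A count of 296 ventral and 468 proximal cells stayed unnamed, and doublets are likely to remain, because the caller marked only 0.193% of cells.

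Levels are UMIs summed over the cells of a class and given as CPM of that class. The counts come from the 3' ends of transcripts and were not scaled to length, so levels are compared between classes and not between genes. In ventral secretory luminal-like cells Sbp and Spink1 alone made up 44.7% of all UMIs, against 16.4% in proximal secretory luminal-like cells and 1.32% in ventral proximal luminal-like cells. Leaving out of the denominator the genes that held over 1% of the UMIs of any class adds 1 constant to every log2 ratio of a comparison. For proximal over secretory luminal-like cells this constant was -0.92 for ventral and -0.38 for proximal cells, and for basal-like over secretory luminal-like cells -0.90 and -0.38. The ratios of single genes below keep all genes in the denominator, and where the direction of a described gene turned without the large genes, its value is given.

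Cldn3 and Cldn4 lie close together on chromosome 5 on opposite strands, and only Cldn4 was high in basal cells. Cldn1 was found mainly in basal and Cldn5 mainly in endothelial cells. The 250 bases before the start of these 4 genes are shown for that reason, 5′ to 3′ on the strand of the gene, from the RefSeq table with build GRCm38.p6. Capitals mark the GC box GGGCGG and the E-box CACCTG, each searched on both strands.
Cldn3: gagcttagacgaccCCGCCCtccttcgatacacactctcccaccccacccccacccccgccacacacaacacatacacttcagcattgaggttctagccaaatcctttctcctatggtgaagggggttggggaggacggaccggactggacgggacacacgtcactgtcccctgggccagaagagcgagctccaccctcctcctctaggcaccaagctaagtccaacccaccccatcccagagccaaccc
Cldn4: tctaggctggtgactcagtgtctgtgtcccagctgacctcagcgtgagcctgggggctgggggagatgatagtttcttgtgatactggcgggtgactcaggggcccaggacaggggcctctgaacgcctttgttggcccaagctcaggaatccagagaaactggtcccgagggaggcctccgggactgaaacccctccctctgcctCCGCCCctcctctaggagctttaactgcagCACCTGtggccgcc
Cldn1: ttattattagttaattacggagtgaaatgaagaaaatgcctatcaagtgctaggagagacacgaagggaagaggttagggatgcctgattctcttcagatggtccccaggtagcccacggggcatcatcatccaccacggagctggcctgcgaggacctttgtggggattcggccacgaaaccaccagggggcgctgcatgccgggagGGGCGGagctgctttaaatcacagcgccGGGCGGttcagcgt
Cldn5: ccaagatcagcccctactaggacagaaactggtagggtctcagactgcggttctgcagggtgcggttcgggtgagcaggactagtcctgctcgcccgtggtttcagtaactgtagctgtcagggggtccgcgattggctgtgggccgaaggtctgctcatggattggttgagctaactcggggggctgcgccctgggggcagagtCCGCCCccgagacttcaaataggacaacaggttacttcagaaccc
These windows are chr5:134985964-134986213 (plus strand) for Cldn3, chr5:134946935-134947184 (minus strand) for Cldn4, chr16:26371840-26372089 (minus strand) for Cldn1 and chr16:18776597-18776846 (plus strand) for Cldn5. The Cldn4 window held 1 CACCTG, starting 14 bases before the start of the gene, and no CACCTG was found in the other 3 windows. CACCTG, the letters bound by Snail and Zeb repressors, was in 8 of the 29 windows listed for 20 of the detected genes and in 17.2% of 32851 windows of all genes. GGGCGG was in 18 of the 29 windows and in 32.7% of all windows. TATAAA was in 3 of 29 and 12.4%, and AACCNGGTT, with any base at N, in 0 of 29 and 0.24%. Windows of the same gene can overlap, so a match can be counted more than once. Windows of Marveld2 share their TATAAA and GGGCGG matches, and windows of Cldn12 share a GGGCGG. A match is a description of these letters and not a site of binding.

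Summed over all 33 genes, tight junction UMIs were most frequent in proximal luminal-like and periurethral-like cells. In the proximal library the sum was 4897 CPM in proximal luminal-like, 5368 in periurethral-like, 2456 in basal-like, 1831 in endothelial-like and 1492 in secretory luminal-like cells. A large part of the proximal luminal-like, periurethral-like and basal-like sums was Cldn4 alone, and of the endothelial-like sum Cldn5, as their levels below show. The sums keep the large secretory genes in the denominator, which lowers those of secretory luminal-like cells against the other epithelial classes. The seminal vesicle epithelium-like cluster had 3311 CPM. Fibroblast-like cells had 470 CPM and macrophage-like cells 526 CPM, which are classes not known for tight junctions. Ventral sums were 3093 CPM in proximal luminal-like, 964 in secretory luminal-like and 808 in basal-like cells. The heat map of levels by class shows the genes behind these sums.

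**Figure D1:**
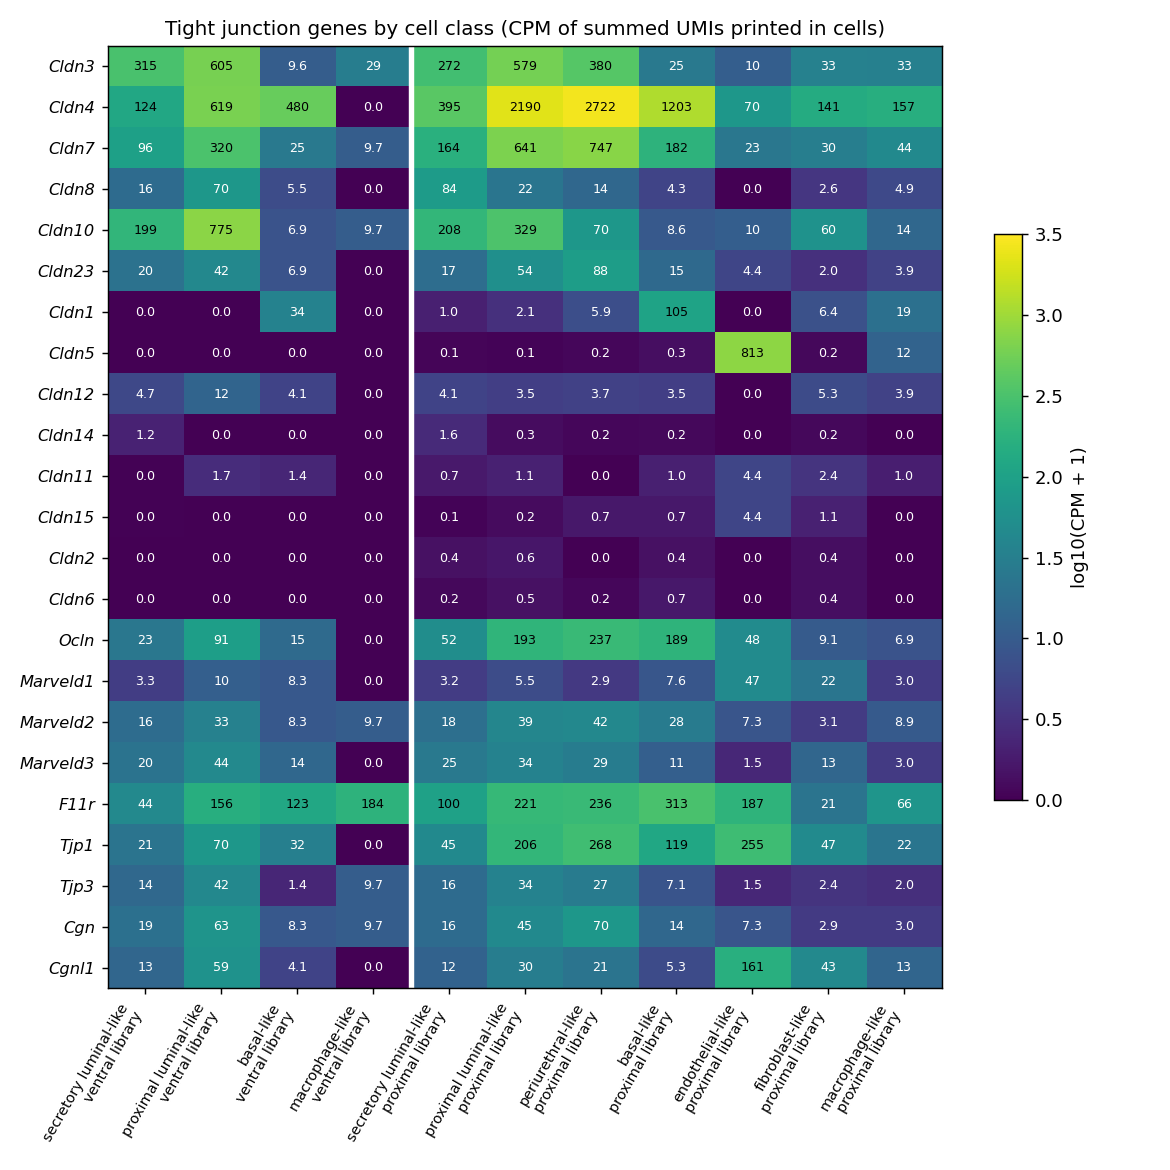
Level of 23 detected genes (rows) in each cell class (columns, ventral library left of the white line, proximal library right of it), with the CPM of summed UMIs printed and log10(CPM + 1) in colour. Cldn5 stands out in the endothelial-like column at 813 CPM and Cldn1 in the basal-like columns at 34.5 and 105 CPM, while Cldn3, Cldn4 and Cldn7 are bright in the luminal columns.

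Cldn3, a barrier-forming claudin of many epithelia, was a luminal gene in both libraries. In the ventral library it was at 315 CPM (310 to 321) in secretory luminal-like, 605 (543 to 672) in proximal luminal-like and 9.65 (3.88 to 19.9) in basal-like cells. The proximal library had 272 CPM (267 to 278) in secretory luminal-like, 579 (569 to 588) in proximal luminal-like, 380 (364 to 396) in periurethral-like, 24.8 (22.0 to 27.8) in basal-like and 10.2 (4.12 to 21.1) in endothelial-like cells. The order of the classes was the same in both libraries, though without the large secretory genes the ventral luminal classes were level for Cldn3, with a ratio of 1.01. In the proximal library no 2 of the 4 epithelial intervals overlapped. Basal-like cells were 23.3-fold (20.8 to 26.3) below proximal luminal-like cells in the proximal library and 62.7-fold (30.1 to 157) below them in the ventral library. Over the alternatives the log2 ratio of Cldn3 ran from -6.10 to -4.41 in the proximal library and from -7.21 to -0.82 in the ventral one, where the value nearest 0 came from naming each cell by marker z-scores. The basal-like level of the proximal library lay under that of fibroblast-like cells (33.1 CPM) and macrophage-like cells (32.5 CPM). Of the 2 proximal basal-like clusters, the one led by Krt14 had 15.3 CPM of Cldn3 and the one led by Grp 44.0. The seminal vesicle epithelium-like cluster of 26 cells had 871 CPM (812 to 932), above every prostate class. The gene overlaps Wbscr25 on the other strand, and whether counting used strand is not given in the sources used here.

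Cldn4, a barrier claudin that is also the receptor of a bacterial enterotoxin, was high in basal cells as well. The proximal library had 395 CPM (389 to 402) in secretory luminal-like, 2190.2 (2172 to 2209) in proximal luminal-like, 2722 (2679.9 to 2764) in periurethral-like, 1203 (1184 to 1223) in basal-like and 70.2 (51.8 to 93.1) in endothelial-like cells. The ventral library had 124 CPM (121 to 128) in secretory luminal-like, 619 (556 to 687) in proximal luminal-like and 480 (431 to 533) in basal-like cells. Secretory luminal-like cells were thus the lowest of the epithelial classes for Cldn4 and not for its neighbour Cldn3. Basal-like cells exceeded secretory luminal-like cells 3.04-fold (2.97 to 3.12) in the proximal and 3.86-fold (3.46 to 4.31) in the ventral library for Cldn4, whereas Cldn3 was 10.98-fold (9.77 to 12.4) and 32.7-fold (15.9 to 81.3) lower. Without the large secretory genes the Cldn4 ratios were 2.34 and 2.07. The ventral log2 ratio of Cldn3 was -0.38 with cells named by z-scores, in place of -5.03. Fibroblast-like cells had 141 CPM and macrophage-like cells 157 CPM of Cldn4, with 52.8% of the macrophage-like UMIs from 1 cell.

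Cldn7, a claudin found along the sides of epithelial cells as well as at the junction, followed the luminal pattern with a larger basal share in the proximal library. It was at 164 CPM (160 to 169) in secretory luminal-like, 641 (631 to 652) in proximal luminal-like, 747 (725 to 770) in periurethral-like, 182 (174 to 190) in basal-like and 23.4 (13.4 to 38.0) in endothelial-like cells there. The ventral library had 95.7 CPM (92.7 to 98.8), 320.0 (275 to 370) and 24.8 (14.7 to 39.2) in secretory luminal-like, proximal luminal-like and basal-like cells. Ventral basal-like cells were 3.86-fold (2.44 to 6.51) below secretory luminal-like cells, while in the proximal library the 2 classes differed by a ratio of 1.11 (1.05 to 1.16). That ratio of Cldn7 turned direction without the large secretory genes, to 0.851. The ventral log2 ratio, -1.95, was -0.44 with cells named by z-scores.

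**Figure D2:**
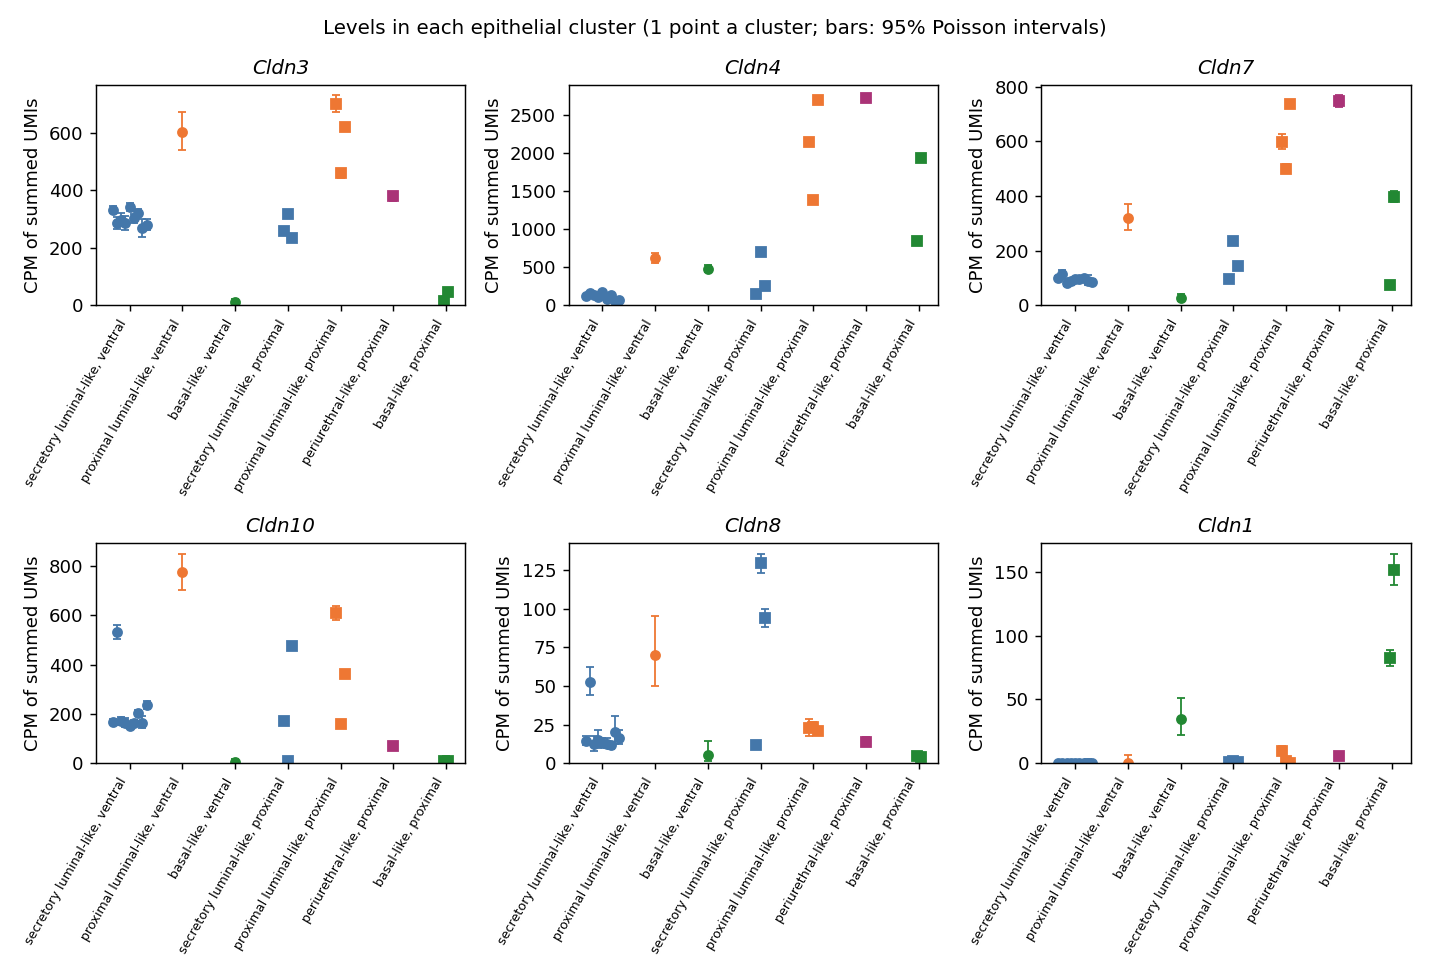
CPM of 6 claudins in every epithelial cluster, with 1 point per cluster (circles ventral, squares proximal), classes along the horizontal axis and 95% Poisson intervals as bars. Clusters of the secretory luminal-like class of the proximal library spread from 8.93 to 474 CPM for Cldn10 and from 11.6 to 129 CPM for Cldn8, and lie between 233 and 317 CPM for Cldn3.

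Cldn10, which forms ion-selective pores, was a luminal gene whose level varied widely within classes. Its class levels in the proximal library were 208 CPM (203 to 213) in secretory luminal-like, 329 (322 to 336) in proximal luminal-like, 69.9 (63.3 to 77.0) in periurethral-like, 8.56 (6.96 to 10.4) in basal-like and 10.2 (4.12 to 21.1) in endothelial-like cells. Ventral levels were 199 (195 to 204), 775 (704 to 850) and 6.89 (2.24 to 16.1) CPM in secretory luminal-like, proximal luminal-like and basal-like cells. Fibroblast-like cells had 59.6 CPM, close to the periurethral-like level, and the seminal vesicle epithelium-like cluster, high for Cldn3, had 2.10 CPM. Basal-like cells were 38.4-fold (31.6 to 47.3) below proximal luminal-like cells in the proximal library and 112-fold (47.8 to 348) below them in the ventral library. Over the alternatives this log2 ratio of Cldn10 ran from -10.34 (with free RNA subtracted) to -4.71 in the proximal library and from -7.59 to -1.43 (cells named by z-scores) in the ventral one.

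Within the secretory luminal-like class of the proximal library, Cldn10 was at 474 CPM in the cluster led by Msmb, 172 CPM in the cluster led by Sbp and 8.93 CPM in the cluster led by Tgm4 and Pate14. Msmb encodes microseminoprotein and Tgm4 the prostate transglutaminase, both secreted. The Msmb-led cluster exceeded the Tgm4-led cluster 53.0-fold (44.1 to 64.4). The ventral library also had an Msmb-led cluster, and there Cldn10 was at 533 CPM against 177 CPM in the other secretory luminal-like cells, a ratio of 3.002 (2.83 to 3.18). In the proximal luminal-like class Cldn10 was at 609 CPM in the cluster led by Prol1, 362 in that led by Arl14 and 159 in that led by Clca1. Within the secretory luminal-like class, Cldn10 was thus highest in the Msmb-led cluster of each library, and the Tgm4-led cluster of 337 cells was near the basal-like level. RefSeq lists 2 start sites for Cldn10, which 3' counts do not tell apart.

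Cldn8, a barrier claudin of tubule epithelia, had opposite orders of the luminal classes in the 2 libraries. Secretory luminal-like cells had 16.0 CPM (14.8 to 17.3) in the ventral and 83.5 (80.5 to 86.7) in the proximal library. Proximal luminal-like cells had 69.9 CPM (49.97 to 95.2, from 40 UMIs) in the ventral and 21.8 (19.9 to 23.7) in the proximal library. Proximal luminal-like cells were therefore 4.38-fold (3.10 to 6.03) above secretory luminal-like cells in the ventral library and 3.84-fold (3.498 to 4.22) below them in the proximal library. The ventral log2 ratio of Cldn8, 2.13, was 0.39 with cells named by z-scores and 1.21 without the large secretory genes in the denominator. The proximal secretory level came from the Tgm4-led cluster at 129 CPM and the Msmb-led cluster at 94.0 CPM, while the Sbp-led cluster had 11.6 CPM. The ventral Msmb-led cluster had 52.6 CPM against 13.6 in the other secretory luminal-like cells. Periurethral-like cells had 13.8 CPM (11.01 to 17.2) and basal-like cells 5.51 (1.502 to 14.1) in the ventral and 4.28 (3.18 to 5.64) in the proximal library. No UMI was found in endothelial-like cells, where a count of 0 allows up to 3 UMIs (4.39 CPM).

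Cldn23 was highest in periurethral-like cells at 88.0 CPM (80.6 to 95.9), followed by proximal luminal-like cells at 53.6 (50.7 to 56.6), secretory luminal-like cells at 16.9 (15.5 to 18.4) and basal-like cells at 14.6 (12.5 to 17.0) in the proximal library. The secretory luminal-like and basal-like intervals overlapped. The ventral library had 20.0 CPM (18.6 to 21.4) in secretory luminal-like, 42.0 (26.9 to 62.4) in proximal luminal-like and 6.89 (2.24 to 16.1) in basal-like cells, and endothelial-like cells had 4.39 (0.905 to 12.8).

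Cldn1, the claudin best known for the water barrier of the skin, was the basal claudin. It had 25 UMIs in the ventral library, all in basal-like cells, at 34.5 CPM (22.3 to 50.9). Proximal basal-like cells had 105 CPM (99.5 to 111), against 1.01 (0.701 to 1.41) in secretory luminal-like, 2.06 (1.53 to 2.72) in proximal luminal-like and 5.91 (4.12 to 8.22) in periurethral-like cells. The basal-like level was 51.0-fold (38.5 to 69.2) above the proximal luminal-like level and 104-fold (74.1 to 151) above the secretory luminal-like level. Ventral basal-like cells were at least 462-fold above secretory luminal-like cells and at least 6.57-fold above proximal luminal-like cells, with 3 UMIs per class as the floor for the counts of 0. Over the alternatives the log2 ratio of Cldn1 in basal-like over proximal luminal-like cells of the proximal library ran from 4.14 to 6.95, and that over secretory luminal-like cells from 5.62 to 8.68. Macrophage-like cells of the proximal library had 18.7 CPM from 19 UMIs in 5 cells, and 52.0% of the proximal luminal-like UMIs came from 1 cell. The proximal luminal-like over secretory luminal-like log2 ratio of Cldn1, 1.03, changed sign under 3 alternatives, to -0.16 as a mean over cells and -0.23 without the Prol1-led cluster or at resolution 2. Endothelial-like cells had no UMI.

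Cldn5, the main claudin of blood vessel endothelium, was found in the endothelial-like cluster at 813 CPM (747 to 884), from 556 UMIs in 36 of 57 cells. The highest cell gave 14.6% of them. All 4 epithelial classes of the proximal library together had 11 UMIs, 0.146 CPM (0.0728 to 0.261), which makes the endothelial-like level 5578-fold (3093 to 11239) higher. Macrophage-like cells had 12 UMIs, all from 1 cell, and the ventral library, in which no endothelial-like cluster was found, had none. Cldn5 was not among the genes used to cluster or name cells, although it was among the 10 leading genes of the cluster afterwards.

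The other detected claudins were low everywhere. Cldn12 had 3.47 to 12.2 CPM in the epithelial classes and no UMI in endothelial-like cells. Cldn14 was at 1.64 CPM (1.23 to 2.13) in secretory luminal-like and 0.289 (0.116 to 0.595) in proximal luminal-like cells of the proximal library, and 45 of its 55 secretory luminal-like UMIs were in the Msmb-led cluster. The ventral classes could not be compared for Cldn14, since 0 UMIs in 50 proximal luminal-like cells allow up to 5.25 CPM, above the 1.19 CPM of secretory luminal-like cells. The ventral Msmb-led cluster had 5.62 CPM of Cldn14 against 0.902 in the other secretory luminal-like cells, a ratio of 6.24 (3.09 to 11.9). Cldn11 and Cldn15 had 4.39 CPM each in endothelial-like cells from 3 UMIs each, and Cldn2 and Cldn6 stayed under 1 CPM in every class. The claudins under the UMI minimum were Cldn9, Cldn13, Cldn16, Cldn17, Cldn18, Cldn19, Cldn20, Cldn22 and Cldn24, and Cldn24 had no UMI in either library.

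Ocln (occludin) separated proximal from secretory luminal cells. Its proximal levels were 51.7 CPM (49.3 to 54.2) in secretory luminal-like, 193 (187 to 198) in proximal luminal-like, 237 (225 to 250) in periurethral-like, 189 (181 to 197) in basal-like and 48.3 (33.2 to 67.8) in endothelial-like cells. Its ventral levels were 23.2 (21.7 to 24.7) in secretory luminal-like, 90.9 (67.9 to 119) in proximal luminal-like and 15.2 (7.57 to 27.1) in basal-like cells. As a whole, basal-like over proximal luminal-like cells of the proximal library had a ratio of 0.979 (0.930 to 1.03), but the Grp-led basal-like cluster was at 318 CPM and the Krt14-led one at 125, on either side of the proximal luminal-like level. Ventral basal-like cells lay 5.996-fold (3.09 to 12.7) below proximal luminal-like cells, and the log2 ratio, -2.58, was -0.82 with cells named by z-scores. Fibroblast-like and macrophage-like cells had 9.14 and 6.90 CPM.

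Among the Marvel-domain genes, Marveld2 encodes tricellulin, which sits where cell corners meet. Marveld2 had 39.1 CPM (36.6 to 41.7) in proximal luminal-like, 42.2 (37.1 to 47.8) in periurethral-like, 27.7 (24.8 to 30.9) in basal-like and 18.2 (16.7 to 19.7) in secretory luminal-like cells of the proximal library. The proximal luminal-like and periurethral-like intervals overlapped. Marveld3 had 34.5 CPM (32.2 to 36.9) in proximal luminal-like, 24.8 (23.1 to 26.5) in secretory luminal-like and 10.5 (8.75 to 12.6) in basal-like cells. Marveld1 differed from both, with 46.8 CPM (32.0 to 66.1) in endothelial-like and 21.8 (18.0 to 26.0) in fibroblast-like cells and 2.87 to 7.62 CPM in the epithelial classes of the proximal library.

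F11r (JAM-A), which acts in adhesion of epithelial and endothelial cells, was at least as high in basal as in luminal cells of the proximal library. Its levels there were 313 CPM (303 to 323) in basal-like, 236 (224 to 249) in periurethral-like, 221 (215 to 227) in proximal luminal-like, 187 (156 to 223) in endothelial-like and 100 (96.8 to 104) in secretory luminal-like cells. The ventral library had 123 (98.5 to 151) in basal-like, 156 (125 to 191) in proximal luminal-like and 44.1 (42.0 to 46.2) in secretory luminal-like cells. The ventral basal-like and proximal luminal-like intervals overlapped, and endothelial-like cells were level with all epithelial cells, with a ratio of 1.02 (0.854 to 1.22) that was 0.918 without the large genes. Ventral macrophage-like cells had 184 CPM from 19 UMIs, of which 57.9% were from 1 cell.

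The scaffold gene Tjp1 (ZO-1), which links claudins to actin, was shared by epithelium and endothelium. Tjp1 in the proximal library was at 45.3 CPM (43.1 to 47.7) in secretory luminal-like, 206 (200 to 211) in proximal luminal-like, 268 (255 to 281) in periurethral-like, 119 (113 to 126) in basal-like and 255 (218 to 295) in endothelial-like cells. Periurethral-like cells were the highest epithelial class, and the endothelial-like interval overlapped theirs. Tjp1 in the ventral library had 20.9 CPM (19.6 to 22.4) in secretory luminal-like, 69.9 (49.97 to 95.2) in proximal luminal-like and 31.7 (20.1 to 47.6) in basal-like cells. Tjp3 overlaps Apba3 on the other strand, and as for Cldn3 the sources used here do not state whether counting used strand.

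Tjp3 (ZO-3), a scaffold of epithelia, and the cingulins were higher in proximal luminal-like than in secretory luminal-like and basal-like cells of the proximal library. Tjp3 was at 34.3 CPM (32.0 to 36.7) in proximal luminal-like, 27.4 (23.3 to 31.9) in periurethral-like, 15.6 (14.3 to 17.0) in secretory luminal-like, 7.10 (5.66 to 8.80) in basal-like and 1.46 (0.0370 to 8.15) in endothelial-like cells. Cgn (cingulin) was at 70.4 (63.8 to 77.5) in periurethral-like, 44.9 (42.3 to 47.7) in proximal luminal-like, 16.0 (14.6 to 17.4) in secretory luminal-like and 13.7 (11.7 to 16.0) in basal-like cells, with 62.9 (44.1 to 87.1) in the ventral proximal luminal-like class. Its secretory luminal-like and basal-like intervals overlapped. Its relative Cgnl1 (paracingulin) was instead highest in endothelial-like cells at 161 CPM (132 to 194), a 9.36-fold (7.63 to 11.4) excess over all epithelial cells, and 42.8 CPM (37.5 to 48.6) in fibroblast-like cells. In the epithelium Cgnl1 had 29.8 (27.6 to 32.0) in proximal luminal-like, 21.1 (17.6 to 25.2) in periurethral-like, 11.6 (10.5 to 12.8) in secretory luminal-like and 5.31 (4.07 to 6.80) in basal-like cells. Ventral proximal luminal-like cells had 59.4 CPM of Cgnl1 (41.2 to 83.1), and secretory luminal-like cells 13.2 (12.1 to 14.4), where 28.6% of its UMIs came from 1 cell.

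Most of the set had more UMIs in proximal than in secretory luminal-like cells. In the proximal library 13 of 21 genes with at least 20 UMIs in the 2 classes were at least 2-fold higher and 2, Cldn8 and Cldn14, at least 2-fold lower. Of all 16381 genes tested there, 42.7% were past 2-fold, 27.2% higher and 15.5% lower. The median log2 ratio was 1.11 for the tight junction genes and 0.23 for all genes, and 18 of 21 lay above the median of all genes. The ventral library had 16 of 17 higher and 0 lower, where 59.3% of 11399 genes were past 2-fold, 55.7% higher and 3.60% lower, with medians of 1.74 and 1.13, and 13 of 17 lay above the median of all genes. The ratio of Cldn4 was 4.99 (4.46 to 5.55) in ventral and 5.54 (5.44 to 5.65) in proximal cells.

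These counts depend on the secretory transcripts in the denominator. Without the genes over 1% of UMIs the ventral count fell to 6 of 17 higher and 0 lower, where 21.6% of all genes were higher and 12.0% lower. The proximal count fell to 7 of 21 higher and 2 lower, where 19.9% were higher and 23.7% lower. The median of all genes then was 0.19 and -0.16, and that of the tight junction genes 0.82 and 0.72. Of all genes past 2-fold, 93.9% were higher in the ventral library with all genes in the denominator and 64.2% without the large ones, and 63.8% and 45.6% in the proximal library. When each cell was named by marker z-scores, 2 ventral genes were past 2-fold.

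**Figure D3:**
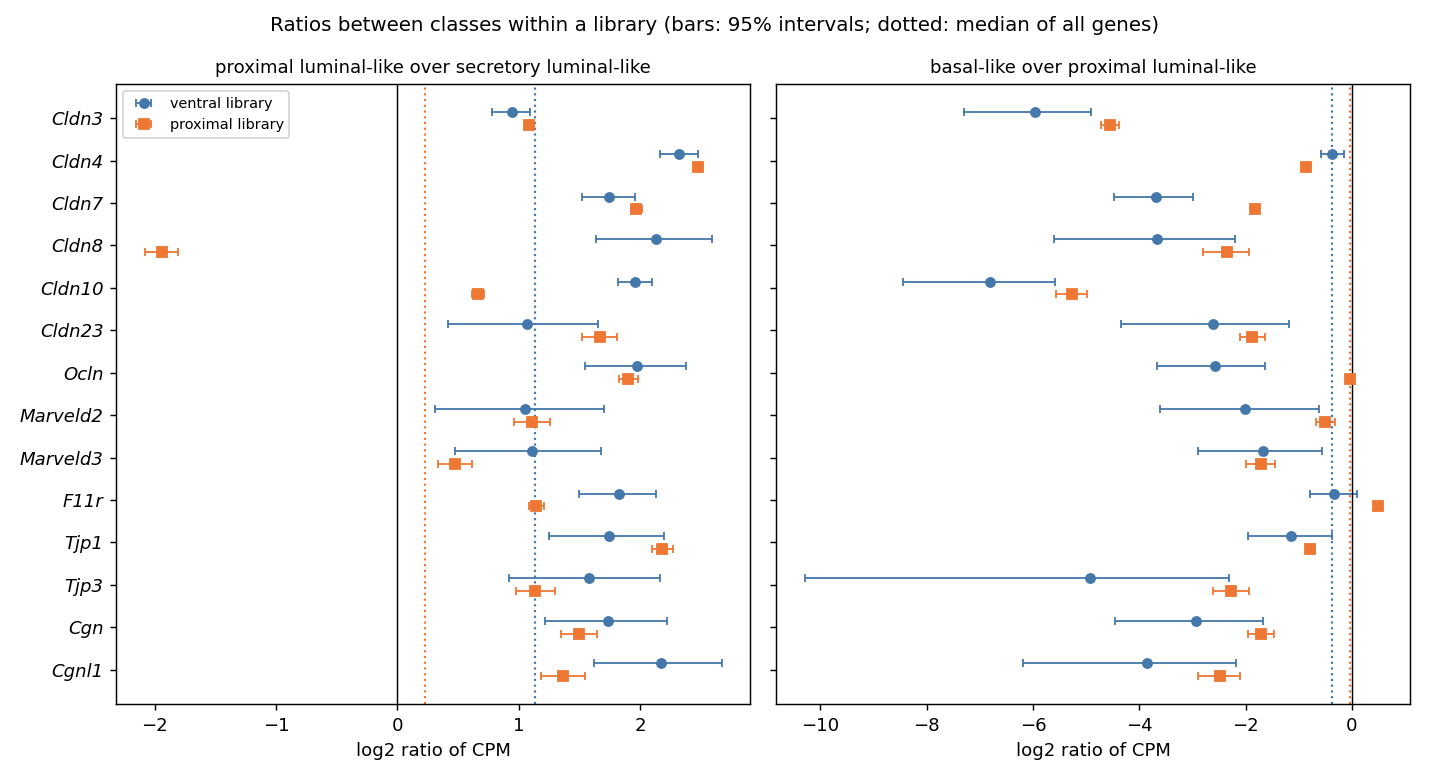
Log2 ratio of CPM (horizontal axis) for 14 tight junction genes (rows) in proximal luminal-like over secretory luminal-like cells (left) and basal-like over proximal luminal-like cells (right), circles ventral and squares proximal, with 95% intervals as bars and the median of all genes dotted. Cldn8 is on opposite sides of 0 in the left panel, at 2.13 and -1.94, and in the right panel proximal Ocln and both values of F11r lie within 1 of 0 while Cldn3 and Cldn10 lie below -4.

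Basal-like cells had fewer tight junction UMIs than proximal luminal-like cells. In the proximal library 9 of 20 genes were at least 2-fold lower and 1, Cldn1, higher, where 28.8% of 15548 genes were past 2-fold, 14.9% lower and 14% higher, with a median log2 ratio of -0.82 for the set and -0.03 for all genes. Ventral basal-like cells had 13 of 16 lower and 1, again Cldn1, higher, where 39.8% of 6632 genes were past 2-fold, 29.2% lower and 10.6% higher, with medians of -2.59 and -0.38. The ventral count rested on few UMIs, with 3 genes past 2-fold at a minimum of 100 UMIs. It also moved to 5 with cells named by z-scores and to 9 under a stricter cell filter that left 23 proximal luminal-like cells. The 2 ventral genes within 2-fold were F11r, at a ratio of 0.788 (0.581 to 1.07), and Cldn4, at 0.775 (0.667 to 0.901). Their proximal ratios were 1.42 (1.36 to 1.48) and 0.549 (0.539 to 0.560).

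Against secretory luminal-like cells, basal-like cells were split. In the proximal library 7 of 21 genes were higher (among them Cldn1, Cldn4, Ocln, F11r, Marveld1 and Tjp1) and 7 lower (Cldn3, Cldn8, Cldn10, Cldn14, Marveld3, Tjp3 and Cgnl1), where 49.7% of 15797 genes were past 2-fold, 29.1% higher and 20.6% lower. Of 18 ventral genes, 4 were higher (Cldn1, Cldn4, F11r and Marveld1) and 8 lower, where 51% of 11615 genes were past 2-fold, 41.2% higher and 9.75% lower. The proximal and ventral medians were -0.06 and -0.78 for the set and 0.20 and 0.75 for all genes. Without the large secretory genes the ventral split became 2 higher and 12 lower, where 16.8% of all genes were higher and 24.1% lower, and the proximal split 6 and 7, where 22.2% were higher and 28.6% lower. Of all genes past 2-fold, the ventral share that was higher went from 80.9% to 41.0% and the proximal share from 58.5% to 43.7%. The ventral log2 ratio of Tjp1 then turned from 0.60 to -0.30. Named by z-scores, 2 ventral genes were past 2-fold, both higher.

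Between periurethral-like and proximal luminal-like cells few genes of the set were past 2-fold, at a share near that of all genes. Of 19 genes, 1 (Cldn1, 2.86-fold, 1.80 to 4.50) was at least 2-fold higher and 2 (Cldn10 and Cldn11) lower, where 17.8% of 14657 genes were past 2-fold, 2.69% higher and 15.1% lower. The median log2 ratio was 0.10 for the set and -0.19 for all genes. Within 2-fold, Cldn23 was 1.64-fold (1.48 to 1.82), Cgn 1.57-fold (1.40 to 1.76) and Tjp1 1.30-fold (1.23 to 1.38) higher, and Cldn3 was 1.52-fold (1.46 to 1.59) lower. Cldn10 was 4.70-fold (4.26 to 5.21) lower. Cldn11 had 0 UMIs in periurethral-like and 26 in proximal luminal-like cells, so its call rests on the floor of 3 UMIs, at which it was at least 2.12-fold lower. This comparison depended on which cells took the name: over the alternatives the class held 94 to 564 cells, and the count past 2-fold was 7 with a stricter cell filter, 6 at resolution 0.5, 8 with another random seed, 7 with z-scores and 1 at a minimum of 100 UMIs. With the highest doublet scores removed, 564 cells took the name and the log2 ratio of Cldn10 was 0.33 in place of -2.23. Over the alternatives the log2 ratio of Cldn1 ran from 1.51 to 6.83, with 6.83 under the stricter cell filter, in place of 1.52. With z-scores that of Cldn11 was 0.10 in place of -1.08.

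Endothelial-like cells had a different set from epithelium. Of 20 genes, 6 were at least 2-fold higher than in all epithelial cells of the proximal library (Cldn5, Cldn11, Cldn15, Marveld1, Cgnl1 and Tjp1) and 12 lower, where 44.7% of 13917 genes were past 2-fold, 26.5% higher and 18.1% lower. The median log2 ratio was -1.97 for the set and 0.17 for all genes. Among the 12, Cldn3 was 33.3-fold (16.2 to 82.8), Cldn10 20.0-fold (9.72 to 49.8), Cldn4 18.2-fold (13.7 to 24.7) and Cldn7 15.6-fold (9.63 to 27.4) lower. Cldn8 and Cldn1 had no UMI and were at least 10.5-fold and at least 4.08-fold lower with 3 UMIs as the floor. Tjp1 was past the limit at 2.02-fold (1.73 to 2.35), and it dropped below it without the large genes in the denominator, which left 5 higher and 12 lower. Cldn11 and Cldn15 rest on 3 endothelial-like UMIs each, and 4 genes were higher at a minimum of 100 UMIs or with the stricter cell filter. With cells named by z-scores these log2 ratios lay nearest 0, at -1.95 for Cldn3, -1.76 for Cldn4, -1.76 for Cldn7 and -0.93 for Cldn10. F11r did not differ beyond counting error.

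Per cell, the same pattern appeared after each cell was thinned to 1000 UMIs. Median depths of the proximal library were 52907 UMIs in secretory luminal-like, 20848 in proximal luminal-like, 21808 in periurethral-like, 11870 in basal-like, 10006 in endothelial-like, 10300 in fibroblast-like and 12147 in macrophage-like cells. Cldn4 was found in 76.2% (73.1 to 79.1) of 798 proximal luminal-like, 86.4% (80.9 to 90.9) of 199 periurethral-like, 49.3% (46.0 to 52.7) of 888 basal-like and 28.3% (24.8 to 31.9) of 640 secretory luminal-like cells. In fibroblast-like, endothelial-like and macrophage-like cells it was found in 8.54%, 7.14% and 3.90%. Without thinning these shares were 99.1%, 100%, 94.3% and 93.1% in the epithelial classes and 38.3%, 45.6% and 42.9% in the other 3. The epithelial shares lay above those of the 3 other classes with and without thinning. The thinned endothelial-like share lay between those of fibroblast-like and macrophage-like cells.

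Cldn3 was found in 41.6% (38.2 to 45.1) of thinned proximal luminal-like, 29.6% (23.4 to 36.5) of periurethral-like and 25% (21.7 to 28.5) of secretory luminal-like cells. Its share in basal-like cells, 1.35% (0.700 to 2.35), was no higher than the 2.14% of fibroblast-like and 2.60% of macrophage-like cells. Without thinning the shares were 96.4%, 88.9%, 93.3% and 13.7%, with 11.9% in fibroblast-like and 11.7% in macrophage-like cells. Cldn1 was found in 6.76% (5.20 to 8.61) of basal-like cells (46.2% unthinned), against 0.251% of proximal luminal-like and 1.30% of macrophage-like cells. Cldn5 was found in 41.1% (28.1 to 55.0) of 56 endothelial-like cells (63.2% of 57 unthinned), in 1 of 77 macrophage-like cells and in 0 of 515 fibroblast-like cells. Any of Cldn3, Cldn4 and Cldn7 was found in 89.8% of proximal luminal-like and 93.0% of periurethral-like cells, against 53.9% of secretory luminal-like, 53.7% of basal-like, 10.7% of endothelial-like and 7.79% of macrophage-like cells. Without thinning these shares were 99.9%, 100%, 98.75%, 95.7%, 52.6% and 53.2% in the same order. A thinned cell held UMIs of a median of 3 tight junction genes in the proximal luminal-like and periurethral-like classes and of 1 in the secretory luminal-like, basal-like and endothelial-like classes. Unthinned medians were 11 in proximal luminal-like, periurethral-like and secretory luminal-like, 6 in basal-like and 5 in endothelial-like cells. Thinning keeps the large secretory transcripts, and Sbp and Spink1 made up 16.4% of the UMIs of these secretory luminal-like cells.

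**Figure D4:**
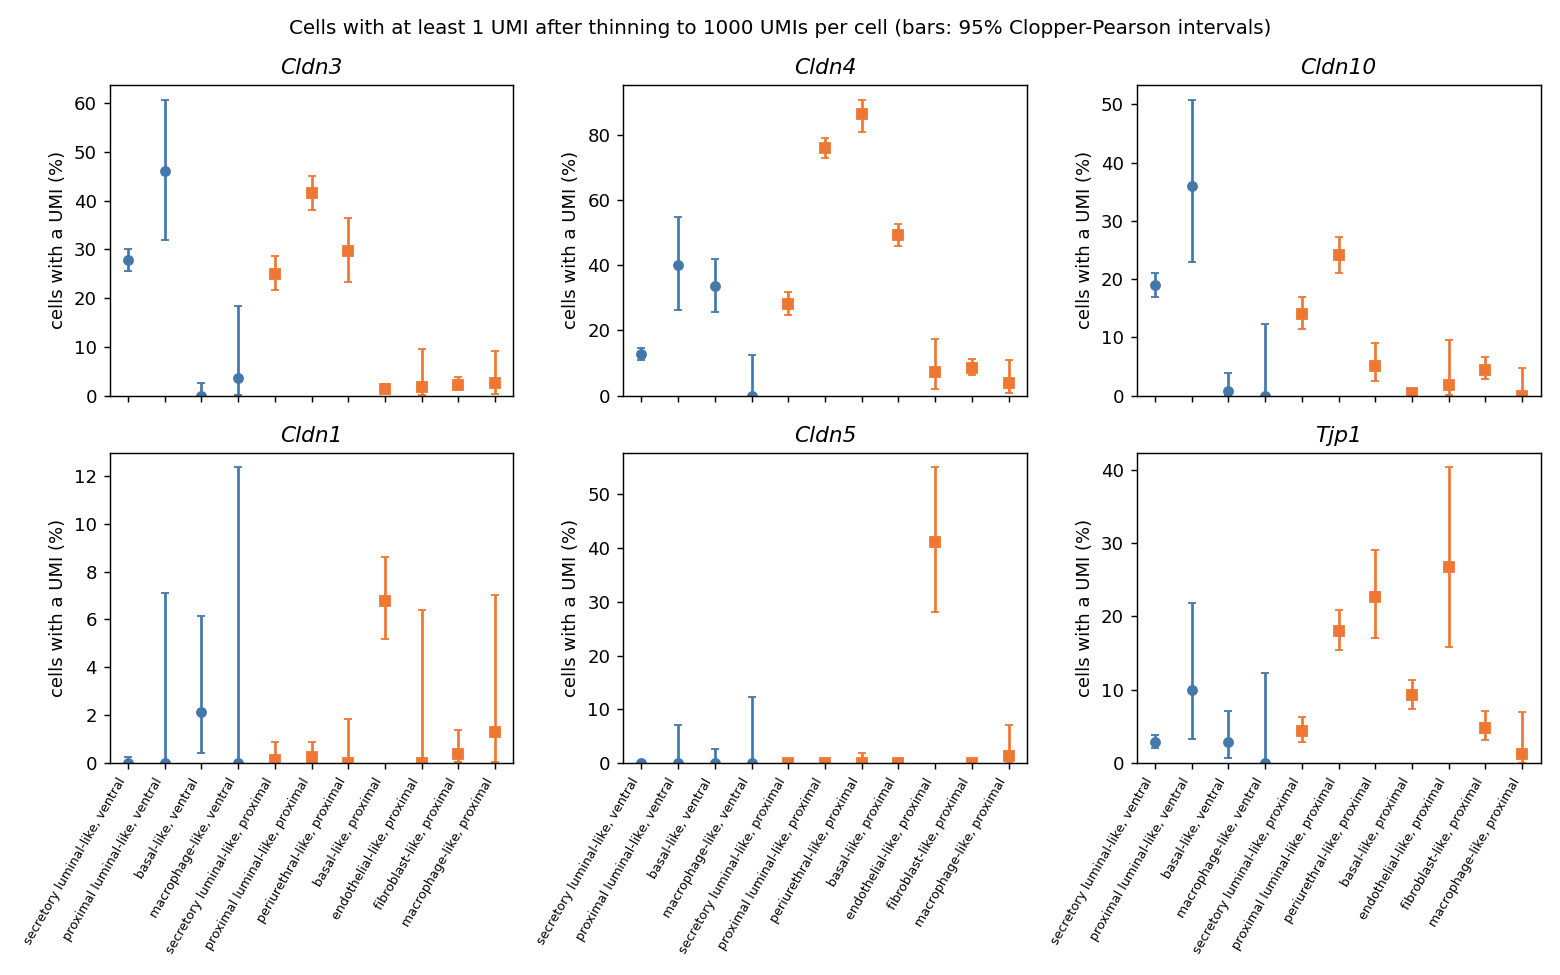
Share of cells (vertical axis, %) with at least 1 UMI of each of 6 genes after thinning every cell to 1000 UMIs, by class along the horizontal axis (circles ventral, squares proximal), with 95% Clopper-Pearson intervals as bars. Cldn4 reaches 76.2% and 86.4% in the proximal luminal-like and periurethral-like classes, and Cldn5 is at 41.1% in the endothelial-like class and at or near 0 elsewhere.

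The basal-like class of the proximal library was not uniform. Its smaller cluster of 214 cells was led by Grp and also by Ivl and Aqp3, which are on the periurethral list, and the larger one of 675 cells by Krt14. Of 18 genes, 10 were at least 2-fold higher and 1 (Cgnl1) lower in the Grp-led cluster, and 26.5% of 12755 genes were past 2-fold in either direction. Cldn7 was at 398 CPM in the Grp-led and 74.9 in the Krt14-led cluster, a ratio of 5.32 (4.83 to 5.86). Cldn23 was at 31.9 and 6.13 (5.19-fold, 3.69 to 7.41), Cldn4 at 1938 and 841 (2.30-fold, 2.23 to 2.38), Ocln at 318 and 125 (2.55-fold, 2.34 to 2.78) and Tjp1 at 203 and 78.2 (2.60-fold, 2.33 to 2.89). Cldn1 was at 152 and 82.5 CPM, so both clusters kept the basal claudin. Whether cells of mixed identity add to the Grp-led levels was not tested.

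The secretory luminal-like clusters differed in tight junction genes about as often as in all genes. Comparing the Sbp-led with the Tgm4-led cluster of the proximal library, 8 of 18 genes were at least 2-fold lower and 1, Cldn10, higher, while 49.3% of 13088 genes were past 2-fold in either direction. All genes were shifted the same way, with a median log2 ratio of -0.94 for the set and -0.89 for all genes. Cldn4 was at 149 CPM in the Sbp-led and 701 in the Tgm4-led cluster, and Tjp1 at 19.7 and 64.8. Between the Msmb-led and Tgm4-led clusters 5 of 19 genes were past 2-fold, against 17.9% of 13548 genes. Between the Msmb-led and Sbp-led clusters 6 of 18 genes were past 2-fold, all higher in the Msmb-led cluster, against 35.1% of 13054 genes in either direction. The median log2 ratio of Msmb-led over Sbp-led cells was 0.67 for the set and 0.72 for all genes. Ventral Msmb-led cells differed from other ventral secretory luminal-like cells in 3 of 18 genes (Cldn8, Cldn10 and Cldn14, all higher), against 16.3% of 12194 genes. In the proximal luminal-like class, 3 of 18 genes were past 2-fold between the Prol1-led and the Clca1-led cluster (14.5% of 12628 genes) and 3 of 18 between the Arl14-led and the Clca1-led cluster (16.9% of 13805 genes). Tjp3 was lower in both comparisons, at 59.3 CPM there, 29.4 in the Prol1-led and 20.1 in the Arl14-led cluster.

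Set side by side, the same class had different levels in the 2 libraries. For basal-like cells 11 of 18 genes were 2-fold or more above the ventral level and 0 below it, where 47.6% of 12113 genes were past 2-fold, 28.3% higher and 19.3% lower, with medians of 1.34 for the set and 0.18 for all genes. Among them were Ocln at 12.4-fold (6.94 to 24.97) and Cldn7 at 7.32-fold (4.62 to 12.4). For proximal luminal-like cells 5 of 18 were higher and 3 lower, where 38.9% of 12192 genes were past 2-fold, 14.4% higher and 24.5% lower. For secretory luminal-like cells 8 of 20 were higher and 0 lower, where 44.3% of 15305 genes were past 2-fold, 41.5% higher and 2.82% lower, so the share of the set was close to the background. The median log2 ratio was -0.18 for the set and -0.26 for all genes in proximal luminal-like cells, and 0.37 and 0.82 in secretory luminal-like cells. In proximal luminal-like cells Cldn3 had a ratio of 0.957 (0.860 to 1.07) to its ventral level and Cldn4 of 3.54 (3.19 to 3.94). In secretory luminal-like cells, where the ventral denominator holds the larger share of secretory transcripts, the ratio was 0.864 (0.841 to 0.887) for Cldn3 and 3.18 (3.08 to 3.29) for Cldn4. Without the genes over 1% of UMIs in a class of either library these secretory ratios were 0.598 for Cldn3 and 2.21 for Cldn4, and those of Cldn10, Cldn14, Marveld2, Marveld3 and Tjp3 turned from above to below 1. The ventral basal-like class was 1 cluster, at 24.8 CPM of Cldn7 and 15.2 of Ocln, while the proximal class held the Krt14-led cluster, at 74.9 and 125, and the Grp-led cluster, at 398 and 318. Dcn, on the fibroblast list, and Sparc were among the 10 leading genes of the ventral cluster. Dcn had 5209 CPM in ventral and 1409 in proximal basal-like cells, with UMIs in 141 of 141 and 750 of 889 cells, against 5934 CPM in proximal fibroblast-like cells. The other 6 fibroblast markers, Col1a1, Col1a2, Col3a1, Lum, Pdgfra and Dpt, each had 8.27 to 33.1 CPM in ventral and 0.171 to 2.57 CPM in proximal basal-like cells, against 91.6 to 1039 CPM in fibroblast-like cells. The part of fibroblast RNA in the library difference of basal-like cells was not tested. The clusters behind the secretory luminal-like class differ as well: the Tgm4-led cluster made up 337 of the 640 proximal cells, and the Msmb-led cluster 96 of the 1462 ventral ones.

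Other junction genes were counted in the same way from lists of related genes. In proximal luminal-like over secretory luminal-like cells of the proximal library, adherens junction genes had 10 of 11 at least 2-fold higher, among them Cdh1 (E-cadherin) at 1147 against 156 CPM, where 27.2% of all genes were higher and 15.5% lower. Polarity and scaffold genes had 10 of 22 higher and 2 lower (Pard6b at 79.6 and 9.17 CPM), desmosome genes 5 of 10 higher and 1 lower (Dsp, desmoplakin, at 382 and 58.8 CPM), and other junctional membrane proteins 4 of 9 higher and 1 lower (Cxadr at 303 and 39.2, Epcam at 1423 and 438 CPM). Of the regulators of epithelial junction genes 7 of 16 were higher and 0 lower, with Klf5 at 645 and 47.4 CPM. Gap junction genes went both ways, 4 of 8 higher and 2 lower, with Gjb1 at 6.23 and 21.3 CPM. The ventral adherens list had 8 of 8 higher, where 55.7% of all genes were higher, with Cdh1 at 607 and 76.5 CPM. These ratios share the secretory denominator described above.

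In basal-like against proximal luminal-like cells of the proximal library, 5 of 11 desmosome genes were higher and 1 lower, where 14% of all genes were higher and 14.9% lower. Among them were Pkp1 at 47.1 and 3.63 CPM and Dsg3 at 16.2 and 0.165 CPM. Adherens junction genes were split, with 3 of 11 higher and 3 lower, and Cdh3 (P-cadherin), one of the higher, was at 61.1 and 1.16 CPM. Gap junction genes had 2 of 8 higher and 3 lower, and Gja1, a connexin, was at 62.5 and 1.90 CPM. Of the regulators of epithelial junction genes 4 of 16 were higher and 1 lower, with Snai2, a repressor of the Snail family, at 43.2 and 0.495 CPM. Membrane proteases and their inhibitors went the other way, with 5 of 6 lower and 0 higher, among them Spint2 at 178 and 543 CPM. The ventral library differed for some of these lists. In its basal-like over proximal luminal-like cells 0 of 8 regulators were higher and 7 lower, with a median log2 ratio of -2.47, where 10.6% of all genes were higher and 29.2% lower and the median of all genes was -0.38. Snai2 was under the UMI minimum there, with 15 UMIs in basal-like and 0 in proximal luminal-like cells. Ventral adherens junction genes had 2 of 9 higher and 6 lower, with Cdh3 among the higher at 56 and 0 UMIs, and gap junction genes 1 of 2 higher and 1 lower. The desmosome and protease lists had 3 of 6 higher and 1 lower, and 0 of 5 higher and 5 lower. In periurethral-like over proximal luminal-like cells 3 of 15 regulators were higher and 1 lower, and 1 of 6 proteases and inhibitors higher and 0 lower, where 2.69% of all genes were higher and 15.1% lower. Grhl3, a Grainyhead-like factor, was at 24.3 against 4.09 CPM and the protease Prss8 at 86.8 against 36.1 CPM. In endothelial-like over all epithelial cells 1 of 11 adherens junction genes was higher, Cdh5 (VE-cadherin) at 497 against 0.199 CPM, and 4 were lower, where 26.5% of all genes were higher and 18.1% lower. Of 9 other junctional membrane proteins 3 were higher and 5 lower, with Jam2 at 246 against 1.09 CPM and Esam at 309 against 2.16 CPM among the higher. Desmosome genes had 8 of 10 lower and 1 higher.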

How the data were processed

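Single-cell RNA-seq of 2 libraries was analysed. The values are deposited UMI counts, not normalized, made with Cell Ranger 7.0.0 on mm10 per the submitters' processing notes. Per the labels' protocols, 5000 cells were targeted, with kit version 2 for the ventral lobes and 3 for the proximal region. The ventral matrix held 2221 barcodes with 49356586 UMIs and the proximal one 4344 with 97817603. Gene positions and overlaps came from GENCODE annotation of build GRCm38, and upstream sequences from RefSeq (GRCm38.p6). Of 24 detected genes, 20 had a promoter entry.

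The software was scanpy 1.11.5 in Python 3.11.15, with numpy 2.4.6, scipy 1.17.1, pandas 2.3.3, igraph 0.11.9 and anndata 0.12.19. Barcodes under 500 genes or over 10% mitochondrial UMIs were removed (226 ventral, 635 proximal). Scrublet called 7 of 1995 and 4 of 3709 cells, which were removed. At 0.193% of 5704 cells the caller marked far fewer than the assumed 0.8% per 1000 cells, so doublets are likely to remain. Libraries were clustered apart: cells were scaled to 10000 UMIs, log-transformed, reduced from 2000 variable genes to 30 principal components and clustered by the Leiden method (15 neighbours, resolution 1, seed 0), giving 14 ventral and 17 proximal clusters. Clusters took the best-scoring of 20 marker classes if at least 3 markers were in 25% of cells and above the other clusters. If the 10 leading genes held more markers of the second-best class, that name was taken. A cluster stayed unnamed if they held more markers of any other class, or if its depth was under the library median divided by 3 with no own marker leading. The score, its limits and the second-best step were set after clusters had been seen.

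CPM are from summed UMIs with Poisson intervals, ratios have exact conditional intervals and shares Clopper-Pearson intervals. Ratios were counted past 2-fold among genes with at least 20 UMIs in both classes together. A class at 0 was set to 3 counts, and the gene left out where the ratio then pointed the other way. This step was added after the files were read. Detected genes with at least 50 UMIs and 50 CPM in a class (14 genes) were described by class with intervals, other detected genes by level, and up to 4 genes per junction list by size of ratio. The members, lists and comparisons were chosen with earlier results of these data known. Steps were tested on simulated data. The 16 alternatives covered filters, doublets, resolution, seed, variable genes, naming, scaling, averaging, free RNA and thresholds, and 3 of them were chosen after seeing the data. The shares had 2 more, no thinning and thinning to 3000 UMIs. Single results for some genes that enter the counts are not reported here.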

Additional observations from a re-analysis of the deposited data

Results flagged for a closer look

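Cldn8 had opposite directions in the 2 libraries: the log2 ratio of proximal luminal-like over secretory luminal-like cells was 2.13 in the ventral library (69.9 against 16.0 CPM) and -1.94 in the proximal library (21.8 against 83.5 CPM). It was singled out because a called ratio changed sign between the libraries, and with 1 library each the difference was not tested. Over the alternatives the ratio of Cldn8 ranged from 0.39 to 2.39 in the ventral and from -2.32 to -1.67 in the proximal library, and the ventral low came from naming cells by z-scores. The secretory luminal-like clusters differ in kind between the libraries, with Cldn8 at 129 CPM in the Tgm4-led and 11.6 CPM in the Sbp-led proximal cluster. The ventral proximal luminal-like value rests on 40 UMIs in 50 cells.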

How the results depend on the processing

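Of 121 counts of genes past 2-fold under alternatives, 103 stayed within 1.5 times the reported count and 18 moved. Of 1334 log2 ratios for 102 gene and comparison pairs, 1035 stayed within the interval of the reported ratio, 294 moved beyond it in the same direction and 5 changed sign. With z-scores naming each cell, the count was 2 in place of 16 for proximal luminal-like over secretory luminal-like and 2 in place of 12 for basal-like over secretory luminal-like cells (both ventral), 5 in place of 14 for basal-like over proximal luminal-like cells (ventral), and 7 in place of 3 for periurethral-like over proximal luminal-like cells. A denominator without genes over 1% of UMIs gave 6 in place of 16 (ventral) and 9 in place of 15 (proximal) for proximal luminal-like over secretory luminal-like cells. A threshold of 4-fold gave 4, 4, 4, 5, 6 and 1 for proximal luminal-like over secretory luminal-like (ventral, proximal), basal-like over secretory luminal-like (ventral, proximal), basal-like over proximal luminal-like (proximal) and periurethral-like over proximal luminal-like cells. At least 100 UMIs gave 3 for ventral basal-like over proximal luminal-like and 1 for periurethral-like over proximal luminal-like cells. A filter of 1000 genes and 5% mitochondrial UMIs gave 9 and 7 for the same comparisons, and resolution 0.5 and seed 1 gave 6 and 8 for the periurethral-like one. For endothelial-like over epithelial cells, counts were 14 to 18 under the alternatives. The log2 ratio of Cldn1 in proximal luminal-like over secretory luminal-like cells of the proximal library was 1.03, and -0.23 at resolution 2, -0.16 as a mean over cells and -0.23 without the Prol1-led cluster, the last chosen after seeing the data. In periurethral-like over proximal luminal-like cells, Cldn10 was 0.33 with the highest doublet scores removed and Cldn11 0.10 with z-scores. The causes were not tested. With junction genes among the variable genes no cluster took the periurethral name, so that comparison has no value there.

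The share of cells with a UMI rose with depth by construction. Unthinned and at 3000 UMIs it was 99.1% and 93.1% for Cldn4 in proximal luminal-like, 94.3% and 77.6% for Cldn4 in basal-like, 96.4% and 73.2% for Cldn3 in proximal luminal-like, 98.7% and 59.9% for Cldn3 in ventral secretory luminal-like (27.8% at 1000 UMIs), 46.2% and 20.6% for Cldn1 in basal-like, 63.2% and 52.7% for Cldn5 in endothelial-like, and 53.3% and 30% for Cldn10 in proximal-library secretory luminal-like cells (14.1% at 1000 UMIs). Depth limits the ventral proximal luminal-like class (50 cells, 571929 UMIs), the ventral basal-like class (725410 UMIs) and the endothelial-like class (683620 UMIs). No paired analysis was possible because each region had 1 library.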

Other observations

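Among cells that took no class name, the proximal library had a cluster of 410 cells led by haemoglobin genes whose markers scored best as proximal luminal. It had Cldn10 at 515 CPM, Cldn4 at 1243, Cldn3 at 456, Cldn7 at 504 and Cldn8 at 37.5 CPM. A ventral cluster of 296 unnamed cells, with secretory markers and S100a9 among its leading genes, had Cldn3 at 293, Cldn4 at 62.4 and Cldn7 at 81.5 CPM. In the ventral library Cgnl1 was at 57.7 CPM in 1 secretory luminal-like cluster of 124 cells and at 8.34 to 12.5 CPM in the other 8, while 28.6% of the UMIs of the whole class came from 1 cell.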
